A study of Mus musculus with 8 samples.

Results

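Interstitial collagens, elastic fibre proteins and the enzymes that assemble them were followed in microvessels of the newborn mouse brain. The group was a list of 30 genes taken by symbol. Of these, 29 had a probe set that the platform annotation gives to that symbol alone, out of 18194 genes named in that way, and Fbn1 was not analysed here. Where a gene had several such probe sets, as 24 members did, the one with the highest mean over the arrays stood for it. All 29 lay above the filter on dim signal that left 11446 genes for testing, and Col14a1 passed that filter through the control arrays alone.

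Each of 8 single-colour arrays carried RNA from the microvessels of 1 brain at postnatal day 1, pulled from the dissociated tissue together with attached pericytes by beads that bind the endothelial protein PECAM. The 4 mutant brains carried the D849V allele of the PDGF receptor beta gene, Pdgfrb, as a knock-in, whose product the labels describe as constitutively active in pericytes, and the 4 control brains were wild type. All had the genetic background 129S/J mixed. The labels name no zygosity, sex, litter or Cre driver. Values are log2 expression values made by the authors with GCRMA, they ran from 2.18 to 16.49, and a difference of 1 on this scale is a 2-fold change.

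The interstitial matrix is the meshwork outside the basement membrane. Fibrillar collagens form its cables, collagen VI and the fibril-associated collagens tie them to cells and to each other, fibronectin and matricellular proteins link matrix to receptors, and elastin with its microfibril proteins gives large vessels their recoil. In the brain this matrix is sparse within the tissue and is made mainly by meningeal and perivascular fibroblasts and by mural cells of larger vessels, and PDGF receptor beta is a receptor of such mesenchymal cells.

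Markers of vessel cells and of other brain cells were both present. All 8 endothelial markers were above the filter, with mean levels per array from 11.32 to 12.29, and so were all 11 pericyte markers that had a probe set. Of 16 fibroblast and meningeal markers 15 were tested, Dpep1 being below the filter. The choroid plexus gene Ttr averaged 16.39 in mutants and 16.36 in controls, close to the top of the value range, and the radial glia gene Fabp7 14.65 and 14.52. Interferon-induced and microglial genes separated the genotypes, with 6 of 6 and 10 of 12 tested genes called higher in the mutants (limma adjusted p under 0.05). No 2 arrays held identical values. In bulk tissue, fewer cells of a type and less RNA per cell cannot be told apart.

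The stretch of 250 bases before the annotated start of 4 members is shown, because Col1a2 and Col3a1 moved together from array to array, Col8a1 was among the lower readings of the mutants, and Serpinh1 ran against the collagens. They come from RefSeq (build GRCm38.p6), whose promoter table held 20 of the 30 members with 25 start sites. Capitals mark matches on either strand to the letters CCAAT, to a TATA box with the letters TATAAA, to a GC box with the letters GGGCGG or to the core of a heat shock element with the letters TTCNNGAA, motifs picked after the values were known. The stretches lie at chr6:4505368-4505617 on the plus strand (Col1a2), chr1:45311288-45311537 on the plus strand (Col3a1), chr16:57754738-57754987 on the minus strand (Col8a1) and chr7:99353240-99353489 on the minus strand (Serpinh1).
Col1a2: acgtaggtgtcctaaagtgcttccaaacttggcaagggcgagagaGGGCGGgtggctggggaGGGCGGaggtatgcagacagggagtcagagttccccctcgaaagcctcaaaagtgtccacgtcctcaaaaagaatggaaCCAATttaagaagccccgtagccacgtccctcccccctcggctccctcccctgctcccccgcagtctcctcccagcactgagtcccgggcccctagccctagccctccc
Col3a1: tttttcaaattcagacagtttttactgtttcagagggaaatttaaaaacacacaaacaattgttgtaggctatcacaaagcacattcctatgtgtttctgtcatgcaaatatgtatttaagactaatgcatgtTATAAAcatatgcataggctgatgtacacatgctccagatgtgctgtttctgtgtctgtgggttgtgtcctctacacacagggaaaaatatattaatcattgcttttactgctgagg
Col8a1: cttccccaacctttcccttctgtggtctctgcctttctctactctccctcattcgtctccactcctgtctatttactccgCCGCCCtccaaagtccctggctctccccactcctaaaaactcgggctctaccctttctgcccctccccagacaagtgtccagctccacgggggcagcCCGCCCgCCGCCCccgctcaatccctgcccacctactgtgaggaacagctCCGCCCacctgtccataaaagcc
Serpinh1: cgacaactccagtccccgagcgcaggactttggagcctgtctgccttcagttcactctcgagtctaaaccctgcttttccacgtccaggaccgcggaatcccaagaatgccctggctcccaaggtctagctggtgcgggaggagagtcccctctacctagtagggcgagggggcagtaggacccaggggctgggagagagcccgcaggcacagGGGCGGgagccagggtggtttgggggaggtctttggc

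GC boxes were the commonest of the 4 motifs, present in 16 of the 25 member promoters (64.0%) against 32.7% of all 32851 promoters in the table. The letters CCAAT stood in 5 of the 25 (20%, against 33.8% of all), with 1 match in Col1a2. The letters TATAAA stood in 5 (20%, against 12.4%), with 1 match in Col3a1, near the middle of its stretch. All counts are of letters anywhere in the stretch. The distance from the start was not used, so a match to TATAAA is not shown to be a working TATA box. Col8a1 held 4 GC boxes, Col1a2 2 and Serpinh1 1. The letters of the heat shock core were not in the window of any member, against 7.17% of all promoters. No test was made of these shares.

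Few members were called between the genotypes. Of the 29 genes tested, none was called higher in the mutants, 1, Col14a1, was called lower and 28 were not called (limma, Benjamini-Hochberg adjusted p under 0.05 over all 11446 genes). Over all tested genes 4.58% were called in either direction and 1.92% were called lower. Col14a1 passed the filter through its controls alone and was not called with no filter (limma adjusted p = 0.0919), so that its call is given as a description and supports nothing about the members. By unadjusted limma p under 0.05 the members did not stand out either: 6 of 29 (20.7%), Col14a1 among them, lay below it, 3 higher and 3 lower, against 20.6% of all genes. Mutant and control arrays separated fully in 2 members, Col14a1 and Lox, both lower in mutants (6.9%, against 10.4% of all genes), and no member lay wholly higher in mutants (against 4.07%). The median difference was -0.06 over the members and -0.11 over all tested genes. More than 1 log2 unit in size was reached by 2 of 29 members, a larger share than the 319 of all 11446. These 2 were Lox, which was not called, and Col14a1, with the filter limit given above.

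The depth of an array is not a count, and its precision is set here by 4 arrays per group. For 21 of the 29 members the 95% confidence interval of the difference lay wholly within a 2-fold change in either direction. This share, 72.4%, was below the 86.7% of all tested genes. It depends on the size of a difference as well as on the width of its interval. The other 8 members, with intervals reaching past a 2-fold change, were Col6a2, Col8a1, Col12a1, Col14a1, Thbs2, Eln, Fbln1 and Lox. Of these only Col14a1 was called.

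**Figure D1:**
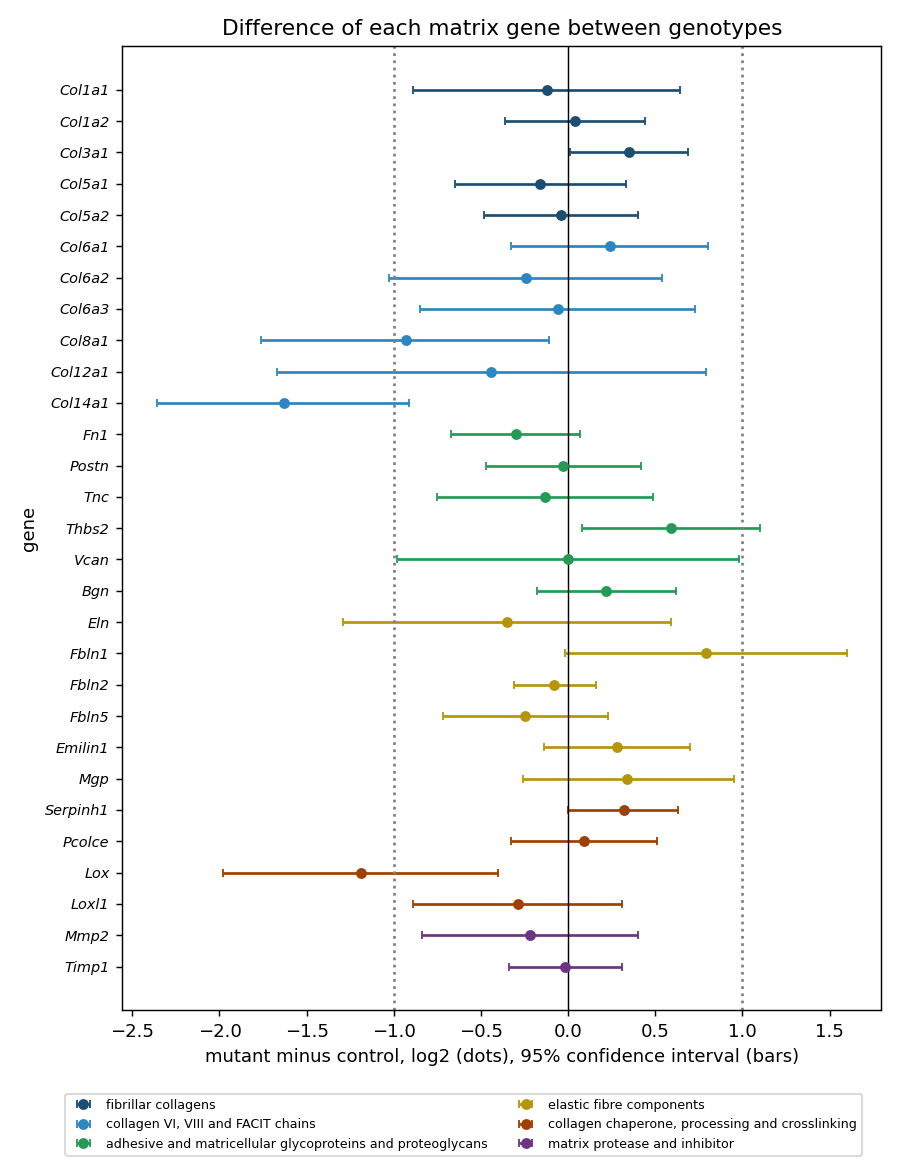
Difference of each of the 29 tested genes between mutant and control arrays on the log2 scale (dots), with the 95% confidence interval of the limma fit (bars), coloured by role; dotted lines mark a 2-fold change. Col14a1 at -1.63, Lox at -1.19 and Col8a1 at -0.93 lie farthest below 0, and Fbln1 at 0.79 and Thbs2 at 0.59 farthest above it.

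Fibrillar collagens, the load-bearing cables of connective tissue, were read chain by chain, with no test of the group. None of the 5 chains was called by limma and 1 had an unadjusted limma p under 0.05. Col3a1, the chain of collagen III that is abundant in vessel walls, read 13.19, 13.81, 13.42 and 13.80 on mutant arrays 1 to 4 and 13.20, 13.12, 13.21 and 13.28 on control arrays 1 to 4. Mutant array 1 lay among the controls and the other 3 mutant arrays above them, so that the groups overlapped. The difference was 0.35 (SE 0.148, 95% interval 0.01 to 0.69, limma adjusted p = 0.231), which is 1.27-fold. Its dimmer probe set differed by 0.24 (adjusted p = 0.536 over all probe sets).

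Both chains of collagen I, the main fibrillar collagen of the meninges and of large vessels, were close between the groups. Col1a2 read 12.69, 13.34, 12.95 and 13.52 on the mutant arrays and 13.03, 13.02, 13.11 and 13.17 on the controls. The controls lay together, with an SD of 0.07, inside the wider spread of the mutants, with an SD of 0.37. The mutant mean minus the control mean was 0.04 (95% interval -0.36 to 0.44). Col1a1 differed by -0.12 (95% interval -0.89 to 0.64), reading from 8.08 to 9.43 in mutants and from 8.22 to 9.36 in controls.

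Collagen V, which seeds and thins collagen I fibrils, differed by -0.16 for Col5a1 and -0.04 for Col5a2. The dimmer probe sets of these genes gave larger differences, -0.67 for Col5a1 (SE 0.256, adjusted p = 0.235 over all probe sets) and -0.43 for Col5a2 (adjusted p = 0.381), and neither passed. On that Col5a1 probe set the mutant arrays read 6.25, 7.31, 6.91 and 7.53 and the controls 7.63, 7.57, 7.62 and 7.88. All mutant values lay below all control values there, which was not the case on the brighter probe set, where mutants ran from 8.37 to 9.35 and controls from 8.77 to 9.16.

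Collagen VI, a beaded filament that anchors cells to fibrils, is built from 3 chains, and none differed beyond the spread. Col6a2 read 7.96, 9.17, 8.51 and 9.46 on the mutant arrays and 8.55, 8.76, 9.40 and 9.36 on the controls, which interleaved. The differences were -0.24 for Col6a2 (95% interval -1.03 to 0.54), 0.24 for Col6a1 (-0.33 to 0.80) and -0.06 for Col6a3 (-0.85 to 0.73). Without mutant array 1, the lowest of all 8 for each of these chains, the Col6a2 difference was 0.03 and that of Col6a3 0.26.

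Col14a1 encodes a fibril-associated collagen that sits on the surface of collagen I fibrils. Its brightest probe set read 2.44, 3.50, 3.12 and 3.93 on the mutant arrays and 4.38, 4.92, 4.93 and 5.28 on the controls, so that the groups did not overlap. All mutant values lay below the filter level of 4, which the gene passed only because its 4 controls exceeded it. The fitted difference was -1.63 (SE 0.317, limma adjusted p = 0.0247). With the mutants set to the filter level, their mean on these arrays was at least 1.84-fold lower, a figure without an interval. Near the bottom of the scale, where GCRMA compresses values, the call is on a dim gene. Its next probe set lay below the filter.

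The Col14a1 call did not hold without some of the arrays. It was lost without mutant array 3 (limma adjusted p = 0.0829), control array 2 (0.0697), control array 3 (0.0771) or control array 4 (0.0849), and also with no filter on dim genes (0.0919). Over the 15 alternatives that could be computed for it the adjusted p ran from 0.000425 to 0.0919, and the call held in 10. All except the fit with no filter kept a filter that the gene passed through its controls alone. This count, and the sign that the difference kept in each, therefore lend the call no support. With arrays left out in turn its difference ran from -1.86 to -1.37. Genes called lower in all, 220 in the main fit, numbered 89 without mutant array 3, and 106, 89 and 62 without control arrays 2, 3 and 4. They numbered 101 without control array 1, where the Col14a1 call held.

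Col8a1, a short-chain collagen of the subendothelial matrix, read 7.27, 8.56, 8.46 and 8.90 on the mutant arrays and 8.82, 8.93, 9.38 and 9.79 on the controls. Only mutant array 4 reached into the control range. The mutant minus control difference was -0.93 (SE 0.361, 95% interval -1.76 to -0.11, limma adjusted p = 0.196) and did not pass, and the second probe set differed by -0.75 (SE 0.253, adjusted p = 0.186 over all probe sets). Without mutant array 1 the difference was -0.59. Col12a1, a fibril-associated collagen like Col14a1, differed by -0.44 with a wide interval (-1.67 to 0.79): mutant array 1 read 5.79 and the other mutants 7.09 to 8.28.

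Lox, the lysyl oxidase that crosslinks collagen and elastin, was the only other member whose groups did not overlap. It read 6.97, 8.42, 7.61 and 8.43 on the mutant arrays and 8.76, 8.75, 9.14 and 9.54 on the controls. Every mutant value lay under every control value, and the same held on its second probe set, where mutants ran from 5.88 to 7.21 and controls from 7.21 to 8.28 and the nearest values met at the second decimal. The difference was -1.19 (SE 0.345, 95% interval -1.98 to -0.40), a 2.28-fold lower mean, with a limma adjusted p of 0.101 that missed the threshold. The second probe set gave -1.13 (SE 0.341, adjusted p = 0.147 over all probe sets).

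Over its 18 alternatives the Lox difference ran from -1.56 to -0.77 and the adjusted p from 0.00262 to 0.257, passing only with array weights. Without mutant array 1 it was -0.90. The related crosslinker Loxl1 differed by -0.29 (95% interval -0.89 to 0.31), with mutants from 6.82 to 8.0 and controls from 7.28 to 8.06. Loxl3, of the same family but not a member, went the other way and was not called either. It differed by 0.38 (95% interval 0.16 to 0.61, limma adjusted p = 0.0741), with mutants from 7.59 to 7.83 and controls from 7.10 to 7.40. The procollagen processing enhancer Pcolce differed by 0.09 on its main probe set and by 0.30 on the dimmer one (adjusted p = 0.211 over all probe sets), where the mutants, from 9.88 to 10.32, lay just above the controls, from 9.81 to 9.87.

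**Figure D2:**
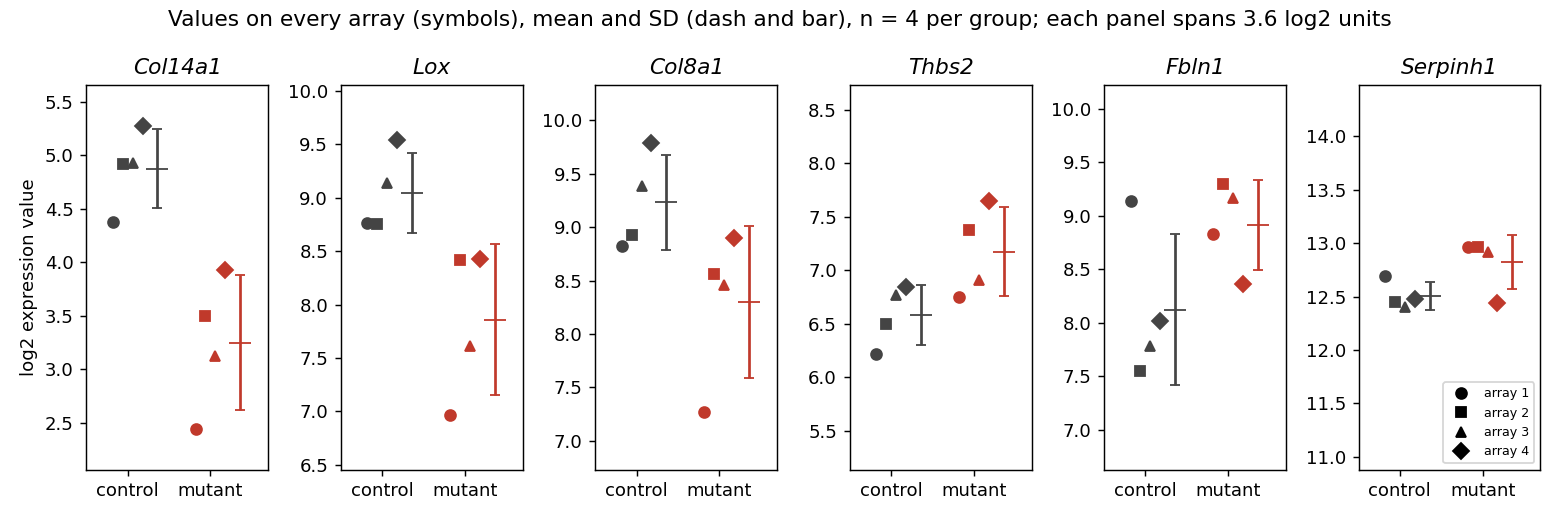
Log2 values of 6 matrix genes on every array (symbols number the arrays within a group and pair nothing), with the mean and SD of each group (dash and bar, n = 4); every panel spans the same number of log2 units. Col14a1 and Lox show no overlap between groups; for Serpinh1, mutant array 4 at 12.44 lies with controls 2 to 4, and for Fbln1, control array 1 at 9.14 lies among the mutants.

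Serpinh1, the collagen chaperone HSP47 of the endoplasmic reticulum, behaved unlike the collagens it folds. It read 12.96, 12.96, 12.92 and 12.44 on the mutant arrays and 12.69, 12.45, 12.40 and 12.48 on the controls. Mutant arrays 1 to 3 lay above all controls, and mutant array 4 lay among them. The difference of 0.32 (SE 0.137, limma adjusted p = 0.24) did not pass, and without mutant array 4 it was 0.44 and passed (limma adjusted p = 0.0446). On its second probe set control array 1 was the highest of all 8 at 13.19, beside 12.86, 13.06 and 12.90 on mutant arrays 1 to 3, and mutant array 4 at 11.85 lay with control arrays 2 to 4, which ran from 11.67 to 12.28; the difference there was 0.43 (SE 0.382, adjusted p = 0.6 over all probe sets). That order of the arrays does not follow genotype. Endothelial markers had a similar order within the mutants, with median deviations from the group mean of 0.12, 0.17, 0.15 and -0.34 on mutant arrays 1 to 4, and among controls were highest on array 1 (0.23). Other lists were low on mutant array 4 too. Microglia and macrophage markers were lowest of the mutants there in 12 of 12 genes. Their median deviations were 0.32, -0.04, 0.20 and -0.58 on mutant arrays 1 to 4 and 0.27, -0.41, -0.16 and 0.40 on control arrays 1 to 4. Interferon-induced genes deviated by -0.28 on mutant array 4. The median deviation of -1.46 there for erythroid genes rests on only 2 tested genes. Of these Hbb-y read 2.29, near the floor, and Alas2 6.53, as on mutant array 2. The part of any of these lists in the Serpinh1 values was not tested.

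Fbln1, a fibulin of microfibrils and basement membranes, showed nearly the same order. It read 8.83, 9.30, 9.17 and 8.36 on the mutant arrays and 9.14, 7.55, 7.78 and 8.02 on the controls. Control array 1 lay among the mutants. The difference of 0.79 was the largest rise in the list (95% interval -0.02 to 1.60, limma adjusted p = 0.252) and did not pass; without control array 1 it was 1.13 (adjusted p = 0.0553). The second probe set gave 0.37, with control array 1 again the highest array at 8.56.

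None of the 6 elastic fibre genes was called. Eln, the core of the elastic fibre, read 9.26, 9.87, 9.47 and 9.97 on the mutant arrays and 8.67, 10.57, 10.21 and 10.52 on the controls. Control array 1 was the lowest of all 8 and the other 3 controls the highest. The difference was -0.35 (95% interval -1.29 to 0.59), and without control array 1 it was -0.79 (limma adjusted p = 0.0874). Mgp, the matrix Gla protein that keeps vessel walls free of mineral, had the same low array, reading 12.37, 12.90, 12.50 and 12.92 in mutants and 11.61, 12.89, 12.42 and 12.40 in controls (difference 0.34, limma adjusted p = 0.487). Fbln5, which organises elastin on microfibrils, also read lowest on control array 1, at 10.78 against 11.06 to 11.86 on the other arrays. Smooth muscle markers, of which 5 were tested and none called by limma (1 with an unadjusted p under 0.05), deviated by -0.82 on control array 1 and 0.57 on control array 2, and their mean level ran from 9.55 to 9.90 in mutants and from 9.62 to 10.73 in controls; their part in the elastic fibre values was not tested.

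Fbln2, a fibulin of vessel walls, ran from 9.64 to 9.94 in mutants and from 9.74 to 10.01 in controls, and its within-group SD of 0.131 was the smallest of the list. Emilin1, an elastin microfibril glycoprotein that restrains TGF-beta processing, differed by 0.28 (95% interval -0.14 to 0.70). Its dimmer probe set differed by 0.58 (adjusted p = 0.316 over all probe sets), with mutant arrays 1 and 2 at 5.65 and 5.63 and all other arrays from 4.35 to 4.60. In this role 0 of 6 had an unadjusted limma p under 0.05.

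Of the 6 glycoproteins that connect matrix to cells, 0 were called by limma and 1 had an unadjusted limma p under 0.05. That gene was Thbs2, a thrombospondin that restrains vessel growth, which read 6.75, 7.38, 6.91 and 7.65 on the mutant arrays and 6.22, 6.50, 6.77 and 6.84 on the controls. Mutant array 1 lay below control arrays 3 and 4, and the other mutants above all controls. The difference was 0.59 (SE 0.222, 95% interval 0.08 to 1.10, limma adjusted p = 0.186), and 2 further probe sets gave 0.40 and 0.45, none of them passing.

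Fn1, fibronectin, the scaffold on which other matrix proteins assemble, read 12.44, 13.22, 12.76 and 12.57 on the mutant arrays and 12.97, 12.99, 13.15 and 13.07 on the controls. Mutant array 2 was the highest array of all and the other 3 mutants lay below every control. The difference was -0.30 (limma adjusted p = 0.33) on this probe set and -0.74 on the dimmer one (SE 0.27, adjusted p = 0.217 over all probe sets).

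Postn, periostin, which promotes collagen crosslinking, differed by -0.03, and Tnc, the adhesion-modulating tenascin C, by -0.13. Vcan, the large proteoglycan versican, differed by -0.0019 with a 95% interval of -0.98 to 0.98, its mutants running from 6.80 to 8.74 and its controls from 7.35 to 8.29. A dimmer Vcan probe set above the filter differed by 0.45 (SE 0.217, adjusted p = 0.334 over all probe sets). Bgn, the small proteoglycan biglycan, differed by 0.22 (95% interval -0.18 to 0.62). Among the proteolytic genes, Mmp2, a gelatinase, read 6.74, 7.58, 7.35 and 8.12 on the mutant arrays and 7.58, 7.64, 7.45 and 8.0 on the controls, which overlapped (difference -0.22, limma adjusted p = 0.676). Timp1, an inhibitor of such proteases, differed by -0.02 (95% interval -0.34 to 0.31).

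Further probe sets gave a partial check of these differences. Above the filter were 21 further probe sets in 19 of the members, of which 17 differed in the same direction as the main one and 4 in the other; they read the same RNA samples and are no replicates. Of the 50 member probe sets above the filter, 1 was called when every probe set was tested singly, against 2.98% of all 19302.

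The members varied more within a genotype than most tested genes. The within-group SD had a median of 0.396 over the 29 members and 0.208 over all tested genes, 27 of 29 members (93.1%) exceeded the latter, and 18 (62.1%) lay above the 75th percentile of all genes. Such spread was not particular to them: that percentile was also passed by 60% of the fibroblast and meningeal markers, 87.5% of the small leucine-rich proteoglycans, 85.7% of the neuronal, 83.3% of the choroid plexus and 100% of the astrocyte and smooth muscle markers tested. Col12a1 varied most, with an SD of 0.892, followed by Vcan (0.708) and Eln (0.676). Without mutant array 1 the median SD was 0.309 over the members and 0.185 over all genes.

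That variation was shared. Mutant array 1 was the lowest mutant array in 23 of the 29 members and the highest in 0, and mutant array 4 the highest in 20, whereas over all tested genes these arrays were lowest in 45.6% and highest in 33.1%. Among controls, array 4 was highest in 18 members and lowest in 0, and array 1 lowest in 15, against 23.6% and 24.6% of all tested genes. The median deviation of the members from the mean of their group was -0.44 on mutant array 1 and 0.43 on mutant array 4, and all tested genes had median deviations of -0.07 and 0.04 on these arrays.

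Fibroblast and meningeal markers, a list that shares no gene with the members, moved on the same arrays. Their median deviation was -0.52 on mutant array 1 and 0.54 on mutant array 4, and they were lowest of the mutants on array 1 in 12 of 15. The mean level of these 15 genes ran from 9.12 to 9.98 on mutant arrays and from 9.57 to 9.89 on controls, and 1 of them, the transcription factor Twist1, was called higher in the mutants (0.46, limma adjusted p = 0.0193), a call that was lost without mutant array 3 (adjusted p = 0.0649), control array 2 (0.0565) or control array 3 (0.0689). Pericyte markers deviated by -0.26 on mutant array 1 and 0.04 on mutant array 4, with mean levels from 9.77 to 10.14 in mutants and from 9.61 to 10.10 in controls. Markers of other brain cells were also low on mutant array 1, with median deviations of -1.03 for 6 astrocyte and radial glia genes, -0.89 for 6 choroid plexus genes and -0.38 for 7 neuronal genes, and at 0.47, 0.27 and 0.32 on mutant array 4. No gene of these last 3 lists was called by limma, and 0, 0 and 2 had an unadjusted p under 0.05. The part of these cell types in the matrix values was not tested.

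**Figure D3:**
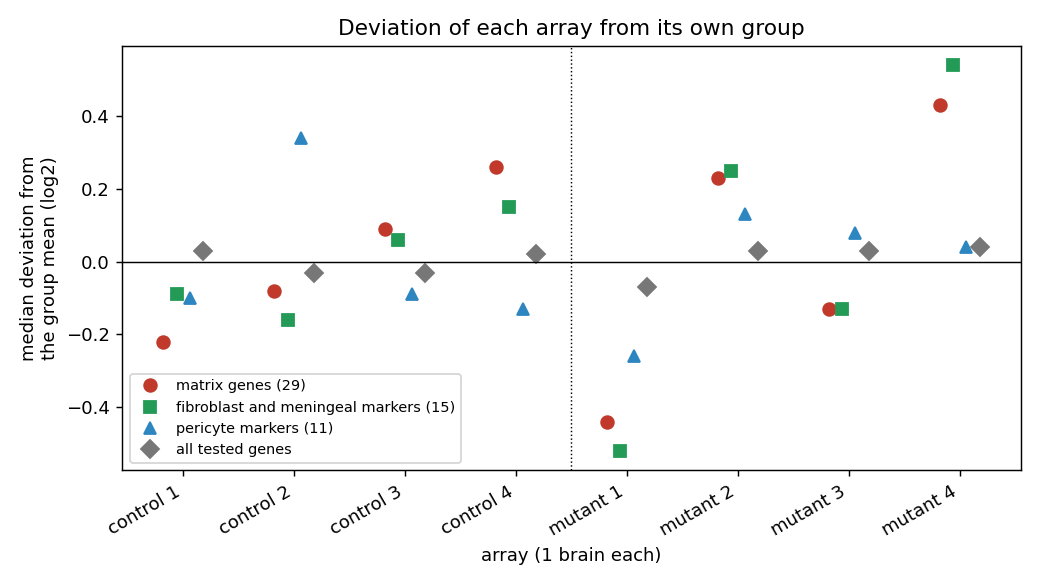
Median deviation of each array from the mean of its own genotype group, in log2 units, for the 29 matrix genes, 15 fibroblast and meningeal markers, 11 pericyte markers and all tested genes; the dotted line parts control from mutant arrays. Matrix genes and fibroblast markers lie together at -0.44 and -0.52 on mutant array 1 and at 0.43 and 0.54 on mutant array 4, while all tested genes stay between -0.07 and 0.04.

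Mutant array 1 also set the direction of several differences. Without it the median difference over the members went from -0.06 to 0.08 (over all genes from -0.11 to -0.07), and without control array 4 to 0.01. It moved the other way without mutant array 4, to -0.23 (over all genes -0.12), and with array weights, to -0.28 (over all genes -0.08). Without mutant array 1, 9 members that had differed downwards differed upwards, among them Col12a1 (0.06), Tnc (0.11), Vcan (0.38) and Postn (0.12). None of the 9 was called in either setting. With that array left out the counts of members called, 0 higher and 1 lower, were as before.

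The likeness of each gene to the fibrillar collagens was described by the Pearson correlation of its values, centred within each genotype, with the mean of the 5 chains over the 8 arrays. It exceeded 0.8 in 15 of the 24 other members (62.5%) and in 8.82% of the 11417 genes outside the list, and also in 9 of the 15 fibroblast and meningeal markers. Thbs2 (0.982), Col14a1 (0.970), Col6a2 (0.966), Postn (0.952) and Lox (0.941) were the most alike; all 4 mutant values of Col14a1 lie under the filter, and without it the count was 14 of 23. With Spearman's rho the count of other members was again 15. Without mutant arrays 1 and 4, which lay farthest out, it was 6 of 24 (25%) by Pearson, against 3.34% of other genes, and 5 of 23 without Col14a1. The fibroblast and meningeal markers numbered 8 of 15 on those 6 arrays. Leaving out the arrays that are extreme on the reference narrows its range, which can lower correlations, but they did not fall in every member. Loxl1 went from 0.854 to 0.581 and Tnc from 0.842 to 0.632, whereas Fn1 went from 0.346 to 0.590 and Eln from 0.637 to 0.721.

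A few members did not share the pattern. The correlation was -0.760 for Serpinh1 (Spearman -0.595, and -0.443 without the 2 outlying arrays) and -0.425 for Fbln1, and it was between -0.096 and 0.346 for Fn1, Fbln5, Fbln2, Emilin1 and Timp1. Eln (0.637) and Mgp (0.607) were intermediate. Outside the list the 10 genes most alike were Ccng1 (0.997), Tmx4 (0.991), Lypd6 (0.985), Abcd3 (0.982), Cyp4v3 (0.980), Dpysl2 (0.979), Crabp2 (0.979), Mtmr9 (0.978), Fnip2 (0.977) and Fmod (0.976), none of which was called between genotypes (limma adjusted p from 0.0693 to 0.892). Crabp2 is also in the list of fibroblast and meningeal markers, and Fmod encodes a proteoglycan of collagen fibrils.

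**Figure D4:**
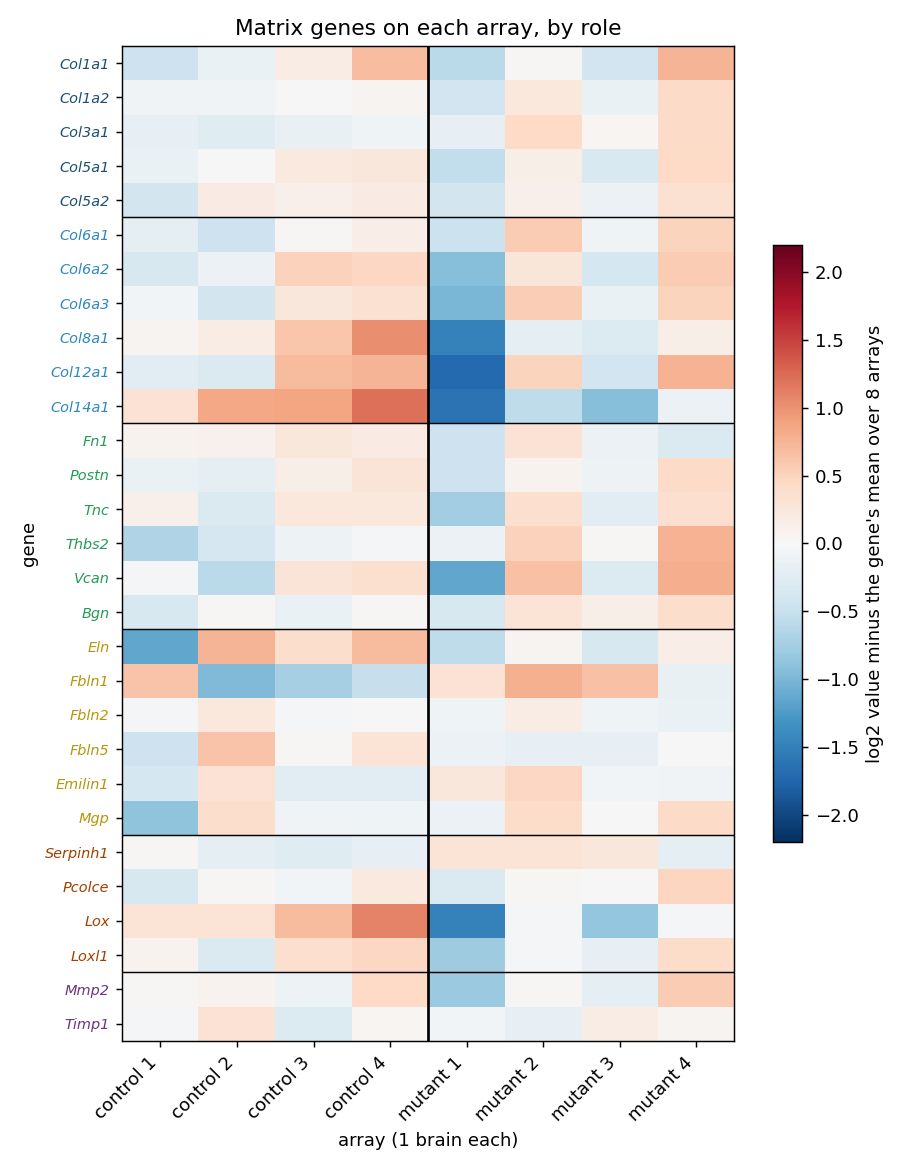
Log2 value of each of the 29 tested genes on each array minus the mean of that gene over the 8 arrays (colour), with genes grouped by role from top to bottom and control arrays left of mutant arrays. Most collagens are low on mutant array 1 and high on mutant array 4 and control array 4; Serpinh1 and Fbln1 do not follow this order, and Eln and Mgp are low on control array 1.

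Other genes of matrix assembly gave a similar share of calls, 3 of the 77 tested, against 4.58% of all genes. Tgfbi, an adhesive matrix protein induced by TGF-beta, was higher in the mutants, 10.08 ± 0.13 against 9.12 ± 0.23 (SD, n = 4 each; difference 0.96, SE 0.131, limma adjusted p = 0.0039), and stayed called without any single array. Ltbp1, which stores latent TGF-beta on microfibrils, was higher by 1.01 (SE 0.185, limma adjusted p = 0.0197), a call lost without control array 1, 2 or 3 (adjusted p from 0.0602 to 0.0634) or with no filter (0.067); averaging its probe sets gave 0.48. Reck, a membrane inhibitor of metalloproteases, was lower by 0.71 on the log2 scale, reading 9.12 ± 0.23 against 9.83 ± 0.12 (SD, n = 4 each; limma adjusted p = 0.0188), a call lost without mutant array 3 or control array 2, 3 or 4 (adjusted p from 0.0584 to 0.0693).

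Small leucine-rich proteoglycans, which coat collagen fibrils, had the lowest median of these lists, -0.60 over 8 tested genes, 7 of them negative (87.5%, against 69.1% of all tested genes). Dcn, Lum and Ogn of this list are also among the fibroblast and meningeal markers. None was called by limma and 2 had an unadjusted p under 0.05. Fmod, fibromodulin, averaged 10.55 ± 0.81 on the mutant arrays and 12.15 ± 0.47 on the controls (SD, n = 4 each). It differed by -1.60 (SE 0.403, limma adjusted p = 0.0693) and was called without mutant array 4 (-1.96, adjusted p = 0.013). Dcn, decorin, differed by -0.03 (95% interval -0.63 to 0.56).

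Enzymes of collagen synthesis did not pass, 0 of 21 in limma, with 5 at an unadjusted p under 0.05 and a median of -0.0022. Sparc, a collagen-binding protein, read 14.63 ± 0.24 against 14.50 ± 0.13 and Ppib, a prolyl isomerase of the collagen folding complex, 14.00 ± 0.10 against 13.94 ± 0.12 (mutant against control, SD, n = 4 each). Of 11 other interstitial collagen chains none was called and 2 had an unadjusted p under 0.05; Col9a3, a cartilage-type chain, differed by -0.45 and Col8a2, partner of Col8a1, by -0.19. None of 6 collagen receptors was called or had an unadjusted p under 0.05, with Ddr1, a collagen-activated kinase, at -0.05 and the integrin chain Itgb1 at 0.14.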

How the data were processed

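Microvessel RNA from 8 brains, 6 ug each, was hybridised to single-colour Affymetrix arrays, 1 array per brain. The deposited table holds 1 log2 value for each probe set and array. Per the submitters' processing notes the authors used GCRMA, whose version is not given in the sources used here; the log2 scale was inferred from the range of the values. GCRMA corrects background by probe sequence and normalizes by quantiles, so that dim probe sets collect near a floor and folds of dim genes are compressed. Of 45101 probe sets 34958 had 1 gene symbol, 932 several and 9211 none, and no symbol needed updating through the gene table of GRCm38.p6. Genes above a log2 value of 4 on at least 4 arrays were tested (11446). Mutant and control arrays were compared gene by gene over all tested genes in limma 3.58.1 (lmFit, then eBayes, under R 4.3.3), with two-sided p-values, Benjamini-Hochberg adjustment and a threshold of 0.05; the fit was tested on simulated data. Batches could not be examined, since no dates were at hand. Numbers of replicates are shared by the groups. Over all tested genes same-numbered arrays did not deviate together (correlations of -0.084, -0.479, -0.201 and 0.303), so they were not paired. The members had their lowest median deviation on array 1 and their highest on array 4 in both groups (mutants -0.44 and 0.43, controls -0.22 and 0.26). Their median within-group SD was 0.396 in the main fit and 0.266 with the replicate block (all tested genes 0.208 and 0.209). Whether same-numbered arrays share a batch was not tested.

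Members and gene lists were chosen with earlier results of these data known. All members are accounted for. Every array is given for the called gene and for the brightest member and the largest difference of each role; Col1a2, Col8a1, Eln and the second probe sets were added after their values were seen. Of each further list the called genes are named, or the 2 brightest where none was called (Fmod is both brightest and most changed of its list), as are the 10 genes most like the fibrillar collagens. Loxl3 was added after its values were seen. Alternatives were no or a stricter filter, a second quantile normalization, centring on array medians, the replicate block, other choices among probe sets, array weights, trend and robust settings, and each array left out.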

Additional observations from a re-analysis of the deposited data

Results flagged for a closer look

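In 3 of the 58 groups of 4 values (29 genes, each in mutants and in controls), 1 array stood apart by a gap to its nearest neighbour past the 95% limit of Dixon for the range of 4 values, which chance passes in about 1 in 20 groups. Col5a2 read 11.21 on control array 1 while the other controls ran from 11.72 to 11.79. Fbln2 read 10.01 on control array 2, against 9.74 to 9.77 on the others. Serpinh1 read 12.44 on mutant array 4, against 12.92 to 12.96 on the other mutants, and its call between genotypes changed when that array was left out.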

How the results depend on the processing

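Over 517 combinations of a member and an alternative, 472 kept direction and side of the threshold, 5 lost a call, 5 gained one and 35 changed sign. The sign changes fell on 13 members, none of them called and none with a main difference larger than 0.44; the other 16 members kept their sign throughout. The number of members called higher, 0 in the fit reported, was 2 with array weights and 0 to 1 with arrays left out in turn; that called lower, 1, was 0 with no filter and also with a stricter filter, the mean of the probe sets or probe sets without a suffix preferred, where Col14a1 was not tested, 3 with array weights, and 0 to 1 with arrays left out. Array weights gave mutant array 3 a weight of 6.6 and mutant array 1 one of 0.357, and called 895 genes higher and 2263 lower in all. Genes called lower numbered 135 with no filter, 38 with the replicate block and 62 to 266 with arrays left out. Further matrix genes called, 3, became 23 with array weights and 1 to 5 with arrays left out. With the replicate block Ltbp1 (adjusted p = 0.0874) and Twist1 (0.132) lost their calls and Fmod gained a call (0.03), while Tgfbi (0.0488) and Reck (0.0329) kept theirs. Col14a1 was called there too (0.00504), again passing the filter through its controls alone.

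Signs changed with array weights in Col1a2 (-0.11), Col6a1 (-0.02), Pcolce (-0.03) and Timp1 (0.14), with a second quantile normalization in Col6a3 (0.02), Postn (0.01), Vcan (0.08) and Timp1 (0.08), and with probe sets without a suffix in Col1a2 (-0.09). With arrays left out in turn the differences ran from -0.40 to 0.08 for Col1a1, -0.09 to 0.19 for Col1a2, -0.18 to 0.08 for Col5a2, -0.47 to 0.03 for Col6a2, -0.25 to 0.26 for Col6a3, -0.77 to 0.06 for Col12a1, -0.17 to 0.12 for Postn, -0.28 to 0.11 for Tnc, -0.27 to 0.38 for Vcan, -0.05 to 0.22 for Pcolce, -0.44 to 0.02 for Mmp2 and -0.12 to 0.09 for Timp1. The cause of these changes was not tested. Values near the floor, such as those of Col14a1, are not resolved by these arrays.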
